A study of Mus musculus with 282 samples.

Results

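Heme is built and taken apart by a short chain of enzymes, and 9 of their genes were followed in mouse liver over time of day, feeding pattern, clock loss and changes in mTOR signalling. The genes were taken by symbol. Alas1, Alad, Uros, Urod, Cpox, Ppox and Fech encode enzymes of synthesis, and Hmox1 and Blvrb encode enzymes of breakdown. They are 9 of the 15907 genes in the first of 2 deposited tables, and 9 of the 15900 genes with values in the second. All 9 passed the filter on low values in both tables, a mean of 1 RPM or more (RPM: reads per 10 to the power 6 reads of the library), as did 12413 genes of the first table and 12261 of the second.

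The livers came from male C57BL/6J mice housed singly under equal hours of light and dark, and were profiled with QuantSeq, which sequences the 3′ ends of polyadenylated RNA. The first table held 13 arms of 18 libraries, 3 mice at each of zeitgeber time (ZT, hours after lights on) 2, 6, 10, 14, 18 and 22. Wild-type (WT) mice fed arrhythmically received the mTOR kinase inhibitor AZD8055 at dawn, received it at dusk, or were left uninjected. Other uninjected WT mice had food ad libitum or at night only. Mice lacking Bmal1, a clock transcription factor, in the whole body (BMKO) were fed at night and given rapamycin, an mTORC1 inhibitor, its vehicle or no injection, and WT mice were treated likewise. TSKO mice lacked Tsc1, a repressor of mTORC1, and RPKO mice lacked Raptor, a subunit of mTORC1, in the liver, and both were fed at night beside Albumin-Cre mice as their control. The Albumin promoter drives Cre in hepatocytes, so other liver cells of TSKO and RPKO mice keep the gene. The second table held 3 arms of 16 WT libraries, 4 mice at each of ZT 4, 10, 16 and 22, all given tunicamycin, which blocks N-glycosylation in the endoplasmic reticulum. They were fed arrhythmically with AZD8055 at dusk, arrhythmically without it, or at night. No arm of the second table was free of tunicamycin. The AZD8055 arms were set against uninjected mice. The sources used here give neither doses nor ages. The labels call the libraries biological replicates, which were taken as separate mice.

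Libraries held 0.706 to 14.3 M recovered reads (M: 10 to the power 6) in the first table (median 8.51 M) and 4.85 to 10.1 M in the second (median 7.71 M), and 3 libraries were under 3 M. The fewest reads of a heme gene in any library were 1 for Hmox1, 1 for Uros and 4 for Ppox, the least precise of the 9. In earlier work on these data a pair of ad libitum libraries, ZT 10 replicate 3 and ZT 14 replicate 3, was described as each resembling the time of the other. Without them the daily means, rhythms and counts of the 9 genes stayed on their side of the threshold, and 5 called differences at single times were lost. Tsc1 averaged 7.23 RPM in TSKO and 14.6 RPM in Albumin-Cre livers, and Rptor, the gene of Raptor, 5.10 RPM in RPKO and 8.88 RPM in Albumin-Cre livers. Arntl, the gene of Bmal1, averaged 10.4 RPM in uninjected BMKO and 13 RPM in WT livers, and with vehicle 13.7 RPM in BMKO and 9.003 RPM in WT livers (limma adjusted p = 0.0555 and 3.76e-10). Its rhythm amplitude was 0.13 in uninjected BMKO and 2.28 in WT, and with vehicle 0.16 in BMKO and 2.45 in WT. The deleted part of Arntl is not given in the sources used here, so reads at its 3′ end do not check the deletion. All 10 hepatocyte markers were detected in every arm. Bulk liver RNA cannot tell fewer cells of a type apart from less RNA per cell.

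Heme synthesis begins and ends in mitochondria. ALAS1 joins glycine and succinyl-CoA and sets the pace of the pathway in liver, where most heme goes into cytochrome P450 enzymes. ALAD, UROS and UROD act next, in the cytosol, where the porphyrin ring is built, and CPOX, PPOX and ferrochelatase (FECH), which inserts iron, finish it in mitochondria. Heme in turn represses Alas1 and destabilizes its product. Heme oxygenase 1 (HMOX1) opens the ring to biliverdin, carbon monoxide and iron and is induced by heme and oxidative stress, and biliverdin is reduced to bilirubin by biliverdin reductases, of which BLVRB prefers the fetal isomer and also reduces flavins.

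The genes are scattered over the genome (GRCm38, GENCODE vM21). Alas1 lies at chr9:106233455-106248654 on the minus strand, Alad at chr4:62509169-62519918 on the minus strand and Uros at chr7:133686243-133710072 on the minus strand. Urod lies at chr4:116989965-116994413 on the minus strand, Cpox at chr16:58670292-58717636 on the plus strand and Ppox at chr1:171275990-171281186 on the minus strand. Hmox1 lies at chr8:75093621-75100589 on the plus strand and Blvrb at chr7:27447978-27466144 on the plus strand. Opposite-strand genes overlap 4 of them: 4930500F10Rik overlaps Alas1, Bccip overlaps Uros, Gpr15 overlaps Cpox and B4galt3 overlaps Ppox. The sources used here do not say whether the counting used strand, so reads of these pairs may not be told apart.

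RefSeq (GRCm38.p6) promoter windows, 250 bases before to 50 after the start, were searched for 7 of the 9 genes, 11 windows in all. Fech and Hmox1 had no window here. Windows on the chromosome of Fech were left out for the 9 genes and kept in the shares of all genes given below. A window each of Alas1, Alad and Urod is shown, for Alas1 and Alad the first of 2. Alas1 was chosen for the largest rhythm amplitude of the 9 genes, and Alad and Urod for the most alike levels of any pair among them. The Alad window shown, its RefSeq start included, lies outside the GENCODE range given above. The Alad window not shown also held an E-box and GC boxes. Capitals mark the motifs found: the E-box CACGTG, to which CLOCK and BMAL1 bind, the GC box GGGCGG, each on either strand, and the nuclear respiratory factor core GCATGCGC, which in Alas1 overlaps its own reverse complement.
Alas1 promoter, chr9:106247905-106248204, minus strand: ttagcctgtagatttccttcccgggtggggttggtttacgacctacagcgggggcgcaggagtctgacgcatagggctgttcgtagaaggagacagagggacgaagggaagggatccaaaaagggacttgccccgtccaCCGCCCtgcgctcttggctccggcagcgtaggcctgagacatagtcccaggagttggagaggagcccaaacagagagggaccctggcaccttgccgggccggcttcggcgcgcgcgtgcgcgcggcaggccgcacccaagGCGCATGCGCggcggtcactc
Alad promoter, chr4:62520014-62520313, minus strand: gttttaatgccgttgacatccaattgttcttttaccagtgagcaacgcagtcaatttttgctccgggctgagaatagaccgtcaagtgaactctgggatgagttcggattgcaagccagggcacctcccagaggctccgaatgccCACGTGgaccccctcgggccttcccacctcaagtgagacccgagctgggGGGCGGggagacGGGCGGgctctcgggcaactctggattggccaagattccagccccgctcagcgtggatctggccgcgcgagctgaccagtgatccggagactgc
Urod promoter, chr4:116994364-116994663, minus strand: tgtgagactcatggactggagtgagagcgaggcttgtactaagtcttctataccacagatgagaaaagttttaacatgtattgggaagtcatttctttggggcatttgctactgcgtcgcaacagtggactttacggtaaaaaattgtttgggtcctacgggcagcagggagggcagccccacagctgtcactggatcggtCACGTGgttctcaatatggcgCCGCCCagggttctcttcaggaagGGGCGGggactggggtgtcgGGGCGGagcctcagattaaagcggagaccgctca

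Over both strands the E-box was in a window of 3 of the 7 genes (Alad, Uros and Urod) and in a window of 8.09% of all 27025 genes with RefSeq windows of the same length. The GC box was in 6 of the 7, all but Cpox, against 38.2% of all genes with windows. The nuclear respiratory factor core was in both Alas1 windows and in no other of the 7 genes, against 3.05% of all genes with windows. Both Alas1 windows overlap there and hold the same site. None of the 7 held the D-box (TTATGTAA or TTACGTAA), the ROR element AGGTCA, the antioxidant response element TGACNNNGC, the FOXO site GTAAACA or the TATA box TATAAA, which were in 1.23%, 18.1%, 14%, 4.05% and 15.7% of all genes with windows. These are matches of letters in a window and not measured binding sites.

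Alas1 was the heme gene rhythmic in the most arms. A 24 h rhythm was tested in each arm by limma on log2(RPM + 0.5) and called at an adjusted p under 0.05. Amplitudes run from the mean to the peak on that scale. Alas1 was rhythmic in 14 of the 16 arms, with called peaks between ZT 7.05 and 17. Hmox1 was rhythmic in 9, Alad in 4, Cpox and Fech in 3 each, Blvrb in 1, and Uros, Urod and Ppox in none (0 of 16). By arm, 2 of 9 genes were rhythmic in arrhythmically fed WT liver, where 7.95% of all genes were, 2 of 9 in ad libitum fed WT liver (16.5% of all genes) and 2 of 9 in night-fed WT liver (21.8%). With arrhythmic feeding these were Alad and Hmox1, and not Alas1 (limma adjusted p = 0.0303, 0.0225 and 0.106). With ad libitum and night feeding they were Alas1 and Hmox1. The highest count was 4 of 9 with AZD8055 at dusk in the first table, against 19.5% of all genes. With a number of libraries left out the count was 0 with arrhythmic feeding, 0 to 2 with ad libitum feeding, where leaving out those numbered 2 gave 0, 1 to 2 with night feeding and 1 to 2 with AZD8055 at dusk.

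**Figure D1:**
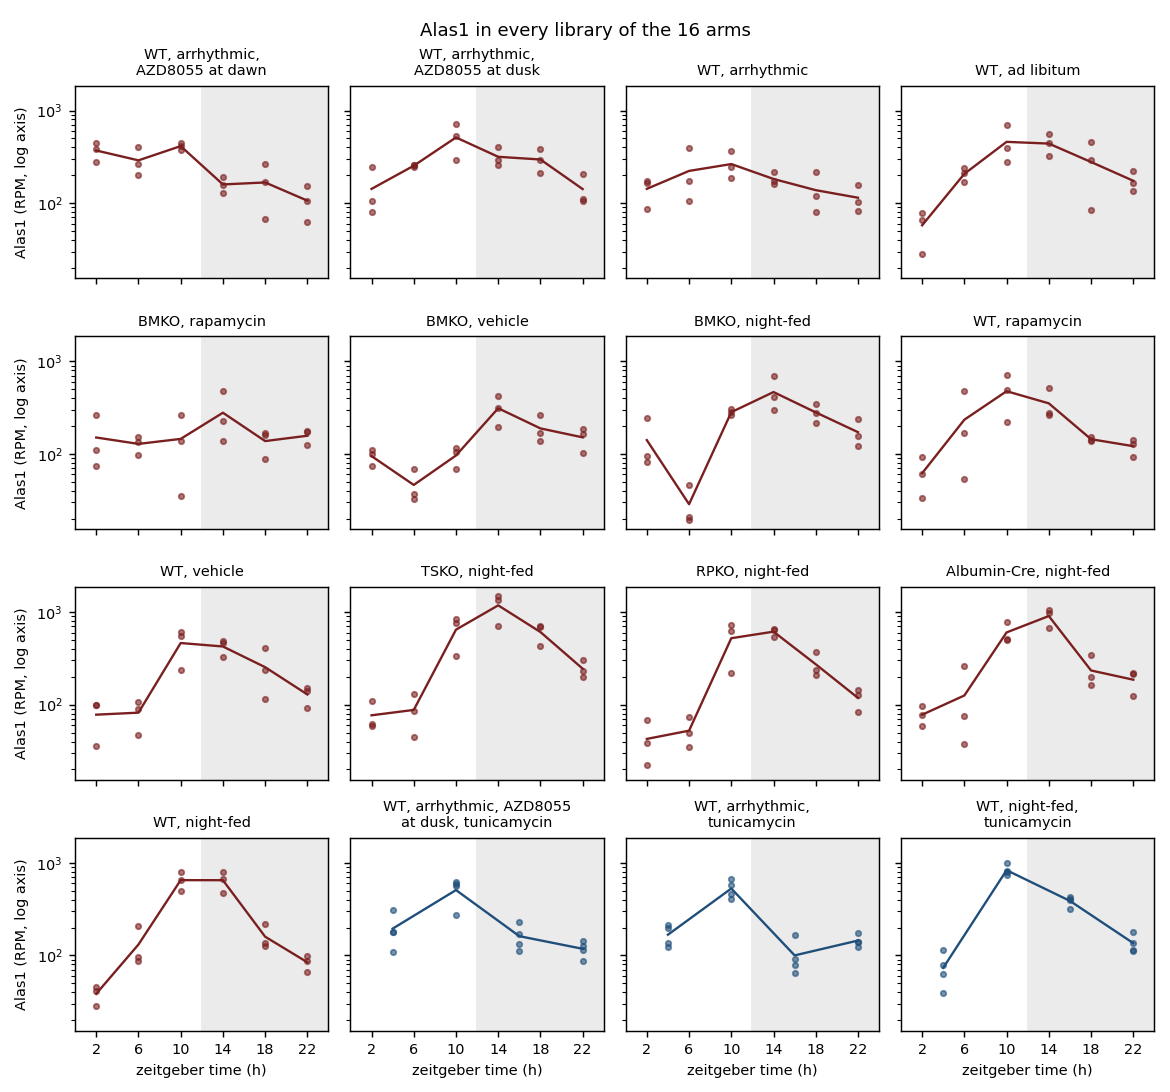
Alas1 in every library of the 16 arms (points, RPM on a log axis) with the mean at each time (lines) against zeitgeber time in hours, dark hours shaded; blue panels are the tunicamycin arms of the second table, which was normalized separately. Levels in night-fed arms with Bmal1 peaked around dusk, while the arrhythmically fed arm was flatter and the rapamycin-treated BMKO arm had an amplitude of 0.28.

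**Figure D2:**
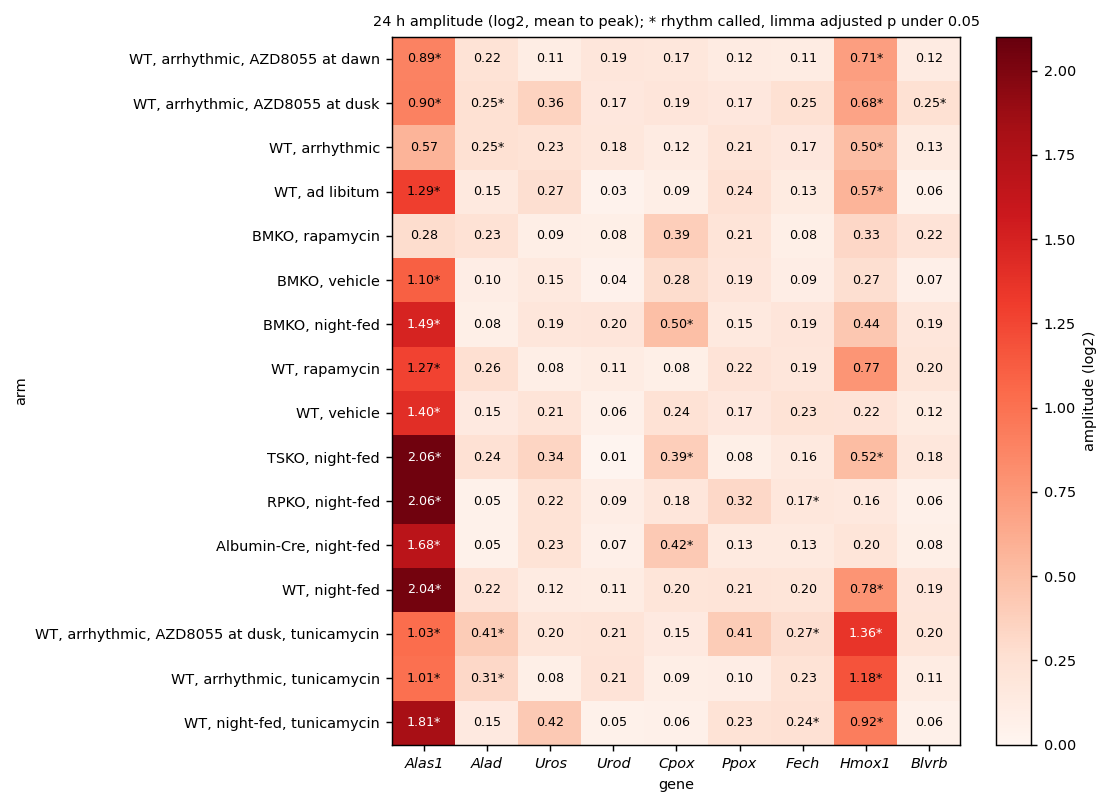
Amplitude of the 24 h rhythm (log2, mean to peak) of each heme gene (columns) in each arm (rows), with a star where the rhythm was called at a limma adjusted p under 0.05. The first column, Alas1, holds the largest amplitude, 2.06. Hmox1 was above Alas1 with tunicamycin and arrhythmic feeding (1.18 against 1.01), also with AZD8055 at dusk added (1.36 against 1.03). In rapamycin-treated BMKO livers Cpox (0.39) and Hmox1 (0.33) were above Alas1 (0.28).

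Under arrhythmic feeding Alas1 lost height at dusk and gained at dawn. At ZT 2 Alas1 had 166, 87.2 and 175 RPM with arrhythmic feeding, against 28.3, 46 and 41.3 RPM with night feeding. At ZT 14 it had 173, 159 and 215 RPM with arrhythmic feeding, against 474, 670.3 and 803 RPM with night feeding. The groups did not overlap at either time, and they stood in opposite order. The differences were 1.84 ± 0.45 at ZT 2 and -1.81 ± 0.45 at ZT 14 (log2 ± SE, limma adjusted p = 0.0169 and 0.00583), where 3.01% and 11.5% of all genes were called. The ZT 2 call was lost in the joint fit (0.0876) or without the libraries numbered 1 (0.11), 2 (0.124) or 3 (0.0938), and the ZT 14 call without the libraries numbered 2 (0.125). The rhythm difference was called (limma adjusted p = 0.000168) for Alas1 alone among the 9 genes, against 4.62% of all genes, and its call held in every alternative run. edgeR called 2 of the 9. The arithmetic mean of Alas1 over the day was 177 RPM with arrhythmic feeding and 285 RPM with night feeding. The test compares means of log2 levels, on which high values weigh less. Their difference was -0.08 ± 0.18 (limma adjusted p = 0.737).

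By amplitude, Alas1 with ad libitum feeding lay between arrhythmic feeding (0.57 ± 0.17, rhythm not called) and night feeding. By fitted peak, which was at ZT 9.63 with arrhythmic feeding, it did not. The Alas1 amplitude was 1.29 ± 0.19 (log2 ± SE, n = 18) with ad libitum feeding and 2.04 ± 0.12 with night feeding, with peaks at ZT 13 and 12.6. The rhythm difference between them was not called (limma adjusted p = 0.3, where 0.854% of all genes were). The rhythm under ad libitum feeding lost its own call without the libraries numbered 2 (limma adjusted p = 0.0637). Set directly against each other, arrhythmic and ad libitum feeding gave no call in a heme gene, with 0 of 9 daily means and 0 of 9 rhythms called by limma or edgeR (0 and 1 at an unadjusted p under 0.05), against 8.38% and 0.0483% of all genes.

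In BMKO liver Alas1 was still rhythmic, with a later peak. At ZT 6 uninjected BMKO livers had 19.2, 20.7 and 46 RPM of Alas1, against 209, 97.2 and 87.8 RPM in WT livers. At ZT 2 they had 94.9, 82.4 and 245 RPM, against 28.3, 46 and 41.3 RPM in WT livers. BMKO was below WT in every library at ZT 6 and above it in every library at ZT 2, and the differences were -2.18 ± 0.52 and 1.71 ± 0.52 (limma adjusted p = 0.000465 and 0.00863; 42.3% and 29.7% of all genes called). The ZT 2 call was lost without the libraries numbered 3 (0.149). The amplitude was 1.49 ± 0.16 with a peak at ZT 16 in BMKO and 2.04 ± 0.12 with a peak at ZT 12.6 in WT (n = 18 each). This rhythm difference was called (limma adjusted p = 0.000645, 3.09% of all genes), a call lost without the libraries numbered 2 (0.216).

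Among vehicle-injected mice the Alas1 peak was at ZT 17 in BMKO and ZT 13.8 in WT, with amplitudes of 1.10 ± 0.14 and 1.40 ± 0.19. At ZT 10 Alas1 had 69.3, 114 and 105 RPM in BMKO, against 235, 608 and 545 RPM in WT, without overlap (-2.18 ± 0.52, limma adjusted p = 0.00286, 4.6% of all genes), a call lost without the libraries numbered 2 (0.162) or 3 (0.0669). The rhythm difference itself was not called (limma adjusted p = 0.133, 1.75% of all genes). With rapamycin the amplitude was 0.28 ± 0.24 in BMKO (limma adjusted p = 0.853) and 1.27 ± 0.24 in WT. Only 0.274% of all genes were rhythmic in the rapamycin-treated BMKO arm. Neither rapamycin against vehicle in BMKO (limma adjusted p = 0.454) nor the difference of that effect from WT (limma adjusted p = 1) gave a called change of the Alas1 rhythm. The BMKO vehicle rhythm was lost without the libraries numbered 2 (0.0665) or 3 (0.175), and the WT rapamycin rhythm without those numbered 2 (limma adjusted p = 0.325).

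Liver loss of Tsc1 or Raptor left a strong Alas1 rhythm. Its amplitude was 2.06 ± 0.16 in TSKO, 2.06 ± 0.17 in RPKO and 1.68 ± 0.20 in Albumin-Cre livers, with peaks at ZT 14.9, 14.2 and 13.7. No rhythm difference was called (limma adjusted p = 0.9 for TSKO, where 0.00815% of all genes were, and 0.97 for RPKO). Over all times Alas1 had 45.1, 316 and 1489.9 RPM (lowest, median and highest) in TSKO and 22.1, 178 and 727 RPM in RPKO, against 37.6, 217 and 1055 RPM in Albumin-Cre livers. The ranges overlapped widely. RPKO was lower than Albumin-Cre (-0.52 ± 0.19 on the log2 scale, limma adjusted p = 0.0288), a call lost without the libraries numbered 2 (0.103) or 3 (0.183). The TSKO difference of 0.33 ± 0.19 was not called (limma adjusted p = 0.194). Directly, TSKO was above RPKO by 0.84 ± 0.19 (limma adjusted p = 0.000273).

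Under arrhythmic feeding a called Alas1 rhythm was present with AZD8055 and not without it, and its peak came earlier after injection at dawn than at dusk. The amplitude was 0.89 ± 0.16 with a peak at ZT 7.05 after AZD8055 at dawn, 0.90 ± 0.15 with a peak at ZT 11.9 after AZD8055 at dusk, and 0.57 ± 0.17 (limma adjusted p = 0.106) without injection. Each AZD8055 rhythm lost its call without the libraries numbered 1 (limma adjusted p = 0.0517 at dawn and 0.0597 at dusk). At ZT 2 Alas1 had 449, 383 and 279 RPM after AZD8055 at dawn and 80.3, 104 and 243 RPM after AZD8055 at dusk, against 166, 87.2 and 175 RPM without injection. Every dawn-injected liver was above every uninjected one at this time (1.41 ± 0.43, limma adjusted p = 0.0374, 7.27% of all genes), a call lost in the joint fit (0.0947) or without the libraries numbered 1 (0.136) or 2 (0.338). Neither arm differed from uninjected mice in a called rhythm (limma adjusted p = 0.251 and 0.382). The 2 AZD8055 arms differed from each other in rhythm (limma adjusted p = 0.00277), a call lost without the libraries numbered 2 (0.0535). After AZD8055 at dusk the daily mean of Alas1 rose by 0.57 ± 0.18 (limma adjusted p = 0.00638), and after AZD8055 at dawn the difference was 0.41 ± 0.18 (limma adjusted p = 0.058).

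With tunicamycin present in both arms, arrhythmic and night feeding again differed in the Alas1 rhythm. At ZT 4 Alas1 had 137, 212, 196 and 124 RPM with arrhythmic feeding, against 113, 63.1, 78.8 and 38.9 RPM with night feeding. At ZT 16 it had 91.9, 166, 63.9 and 78.4 RPM with arrhythmic feeding, against 313, 398, 429 and 411 RPM with night feeding. The groups were apart at both times and in opposite order, as 1.25 ± 0.28 and -2.04 ± 0.28 on the log2 scale (limma adjusted p = 0.0145 and 1.18e-05; 0.612% and 4.58% of all genes). The ZT 4 call was lost without the libraries numbered 2 (0.113), 3 (0.154) or 4 (0.31). The amplitude was 1.01 ± 0.12 with a peak at ZT 8.44 under arrhythmic feeding and 1.81 ± 0.11 with a peak at ZT 12.9 under night feeding (n = 16 each), and the rhythm difference was called for Alas1 alone of the 9 (limma adjusted p = 8.16e-07, 4.36% of all genes). Adding AZD8055 at dusk to tunicamycin and arrhythmic feeding gave an amplitude of 1.03 ± 0.14 and a peak at ZT 9.59, and no called difference (limma adjusted p = 0.794, where 0.0326% of all genes were called).

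Daily mean levels of the other genes shifted with feeding, genotype and injection. Of the 9 genes, 2 higher and 4 lower were called in arrhythmic against night feeding (23.9% and 20.1% of all genes called higher and lower), 2 higher and 4 lower in ad libitum against night feeding (28.5% and 24.5%), and 4 higher and 2 lower in uninjected BMKO against WT (34.3% and 37.4%). The counts were 0 higher and 2 lower in vehicle-injected BMKO against WT (9.95% and 11.8%), 2 higher and 2 lower for vehicle against no injection in WT (15.4% and 11.9%) and 0 higher and 5 lower for the same in BMKO (31.3% and 29.1%). Rapamycin against vehicle gave 1 higher and 0 lower in WT (9.8% and 8.72%) and 1 higher and 1 lower in BMKO (6.32% and 5.57%). In the liver knockouts the counts were 0 higher and 4 lower in TSKO (18.6% and 18%) and 1 higher and 4 lower in RPKO (19.6% and 22.7%), each against Albumin-Cre. AZD8055 against no injection gave 3 higher and 1 lower at dawn (21% and 20%) and 4 higher and 1 lower at dusk (27% and 23.8%). Under tunicamycin limma called 0 of 9 daily means between feeding patterns (0.555% of all genes) and 0 of 9 for AZD8055 (8.85%), with 3 and 4 at an unadjusted p under 0.05 and 0 in edgeR. Several counts rested on few libraries. Without the libraries numbered 1 the count called was 5 in vehicle-injected BMKO against WT, 2 for rapamycin in WT and 1 for AZD8055 under tunicamycin. Without those numbered 2 it was 3 in arrhythmic against night feeding, 1 in vehicle-injected BMKO against WT, 1 for vehicle in WT, 2 in TSKO and 3 in RPKO. Without those numbered 3 it was 1 in vehicle-injected BMKO against WT, 3 in RPKO and 2 for AZD8055 at dawn. For rapamycin in BMKO it was 0 by limma whichever number was left out.

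**Figure D3:**
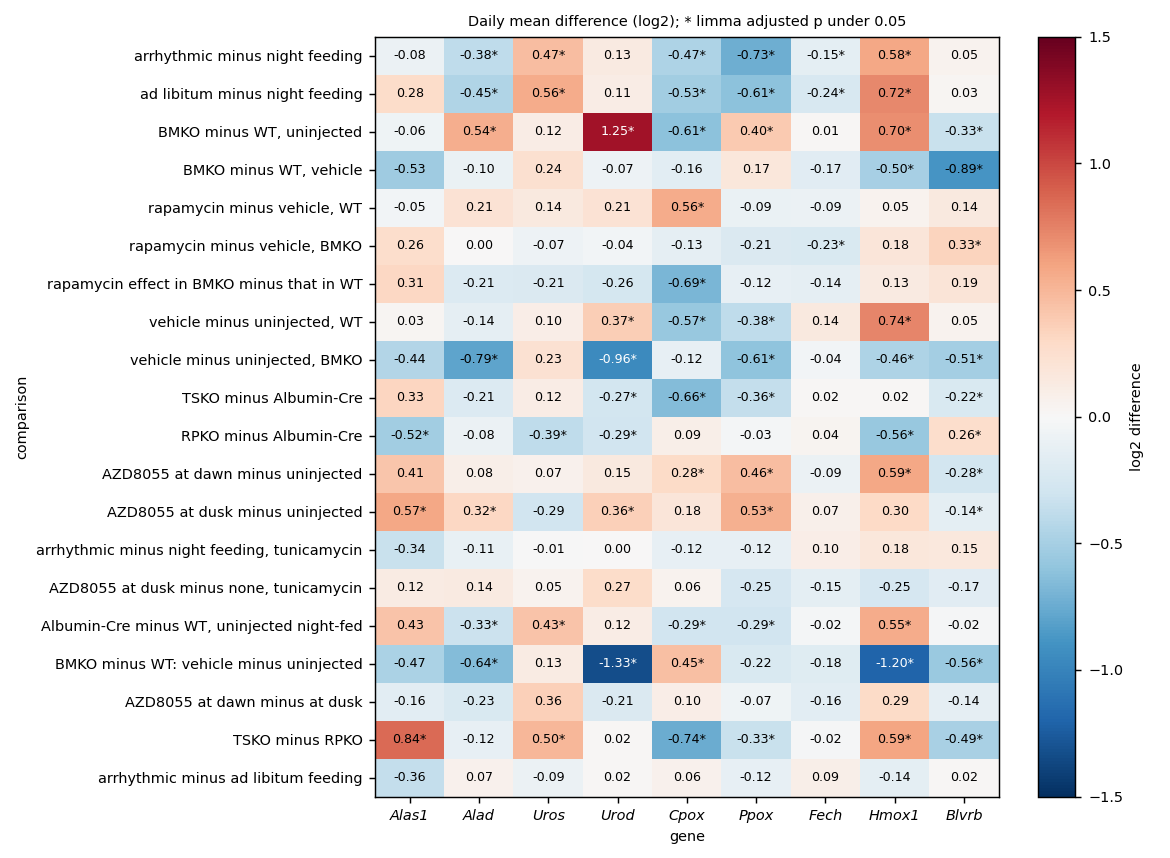
Daily mean difference (log2, colour and number) of each heme gene (columns) in each of 20 comparisons (rows), with a star where it was called at a limma adjusted p under 0.05; several comparisons share a control arm. The deepest colours are Urod in uninjected BMKO against WT (1.25) and in the change of that difference with vehicle (-1.33).

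The uninjected night-fed WT arm is the shared control of 4 comparisons, and several heme genes moved the same way in them. Ppox was -0.73 in arrhythmic feeding, -0.61 in ad libitum feeding, -0.38 with vehicle and -0.29 in Albumin-Cre mice, each as a log2 difference from that arm. Hmox1 was 0.58, 0.72, 0.74 and 0.55 in the same 4. Cpox was -0.47, -0.53, -0.57 and -0.29. All 12 differences were called, Alad was called lower in 3 of the 4 and Uros higher in 3. The Albumin-Cre and WT arms share feeding and injection state and still gave 2 higher and 3 lower of 9, against 18.5% and 16.8% of all genes. Without the libraries numbered 1, 2 or 3 the count called was 3, 2 and 3. No rhythm of the 9 differed between them by limma or edgeR (2 at an unadjusted p under 0.05; 0.00806% of all genes called). The shared arm had the lowest median depth of the 16 arms, 5.76 M reads. The median was 8.74 M with arrhythmic feeding, 9.61 M with ad libitum feeding, 9.52 M with vehicle and 7.92 M in Albumin-Cre mice. What part of these differences belongs to the shared arm or to its depth was not tested.

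Alad, Cpox and Ppox were lower with arrhythmic than with night feeding. Alad, whose product condenses the first precursor to porphobilinogen, had 51.5, 74.5 and 96.2 RPM (lowest, median and highest of 18) with arrhythmic feeding, against 72, 93.9 and 134 RPM with night feeding. The ranges overlapped, with the arrhythmic livers lower on the whole, and the daily mean fell by 0.38 on the log2 scale (SE 0.06, limma adjusted p = 1.60e-06). Cpox, the oxidase that enters the mitochondrial stretch, had 116, 174 and 247 RPM with arrhythmic feeding, against 168, 238 and 309 RPM with night feeding, a difference of -0.47 ± 0.09 (limma adjusted p = 2.84e-05). Ppox, which forms protoporphyrin, had 1.23, 2.36 and 4.71 RPM with arrhythmic feeding, against 2.31, 4.57 and 5.93 RPM with night feeding. The arrhythmic livers were lower on the whole, the ranges overlapped, and the difference was -0.73 ± 0.10 (limma adjusted p = 3.56e-08). These 3 calls held in every alternative run.

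Fech was lower and Uros higher with arrhythmic feeding, with calls that 1 set of libraries could end. Fech, which encodes ferrochelatase and lies at chr18:64452914-64490251 on the minus strand, was -0.15 ± 0.05 in arrhythmic against night feeding (limma adjusted p = 0.0178), a call lost in the joint fit (0.0746) or without the libraries numbered 2 (0.856). Uros, whose product closes the ring, had 2.69, 6.16 and 9.54 RPM with arrhythmic feeding, against 1.44, 3.65 and 11.9 RPM with night feeding, and was higher by 0.47 ± 0.16 (limma adjusted p = 0.017), a call lost without the libraries numbered 2 (0.331). Urod, which removes carboxyl groups from the ring, differed by 0.13 ± 0.07 (limma adjusted p = 0.0964) and was not called. In ad libitum against night feeding the differences were -0.45 ± 0.06 for Alad, -0.53 ± 0.09 for Cpox, -0.61 ± 0.10 for Ppox, -0.24 ± 0.05 for Fech and 0.56 ± 0.16 for Uros, all called (limma adjusted p = 3.66e-08, 2.14e-06, 7.77e-07, 0.000127 and 0.00358). Both comparisons share the night-fed arm.

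In uninjected mice, Urod differed between BMKO and WT livers more than any other heme gene. Among the BMKO arms the high level was in the uninjected one alone. The Urod medians were 71.2 RPM in BMKO with vehicle and 74.9 RPM in BMKO with rapamycin. Whether the difference belongs to genotype or to that arm was not tested. Urod had 129, 146 and 341 RPM in uninjected BMKO livers, against 48.2, 65.7 and 88.4 RPM in WT livers. Every BMKO library was above every WT library. The mean was 161 ± 42.2 RPM in BMKO and 65.7 ± 9.95 RPM in WT (SD within times, n = 18 each), and the log2 difference came to 1.25 ± 0.12 (limma adjusted p = 2.36e-15). The single value of 341 RPM came from a library at ZT 6 under 3 M reads, and without the shallow libraries the difference was 1.21. Urod was called higher at each of the 6 times, kept at ZT 6, 14 and 22 in every alternative run, with per-time differences from 0.91 to 1.89.

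Alad followed at a smaller size. It had 111, 140.3 and 172 RPM in uninjected BMKO livers, against 72, 93.9 and 134 RPM in WT livers, with a narrow overlap, and was higher by 0.54 ± 0.08 (limma adjusted p = 1.47e-08). Its medians were 74.7 RPM in BMKO with vehicle and 78.9 RPM in BMKO with rapamycin. Cpox went the other way, with 56.7, 161 and 229 RPM in BMKO livers, against 168, 238 and 309 RPM in WT livers, a difference of -0.61 ± 0.11 (limma adjusted p = 2.17e-06). Ppox had 3.71, 5.45 and 12.5 RPM in BMKO livers, against 2.31, 4.57 and 5.93 RPM in WT livers, and rose by 0.40 ± 0.12 (limma adjusted p = 0.00187), a call lost without the libraries numbered 1 (0.0584). Uros (0.12 ± 0.17) and Fech (0.01 ± 0.08) were not called.

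Markers of liver cell types moved with genotype too. The 10 hepatocyte markers summed to 41927 to 54706 RPM in uninjected BMKO livers and 65379 to 85989 RPM in WT livers, without overlap, with 3 higher and 2 lower of 10 called. The 7 endothelial markers summed to 106 to 187 RPM in BMKO and 172 to 262 RPM in WT, and the 6 stellate cell markers to 107 to 228 RPM in BMKO and 255 to 354 RPM in WT. The 12 Kupffer cell markers summed to 133 to 463 RPM in BMKO and 142 to 456 RPM in WT, with 2 higher and 8 lower of 12 called. The 5 cholangiocyte markers summed to 39.7 to 82 RPM in BMKO and 10.8 to 44.4 RPM in WT, and the 5 of 7 neutrophil and lymphocyte markers in the table to 1.60 to 9.06 RPM in BMKO and 4.50 to 12.3 RPM in WT (Ly6g and Cd79a were not in it). Erythroid markers, which bear on heme genes because red cell precursors make heme, summed to 1301 to 4103 RPM in BMKO and 1449 to 4795 RPM in WT, over the 6 of them used here. No marker in the table was at 0 throughout any of these arms, and the part of these shifts in the heme genes was not tested.

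**Figure D4:**
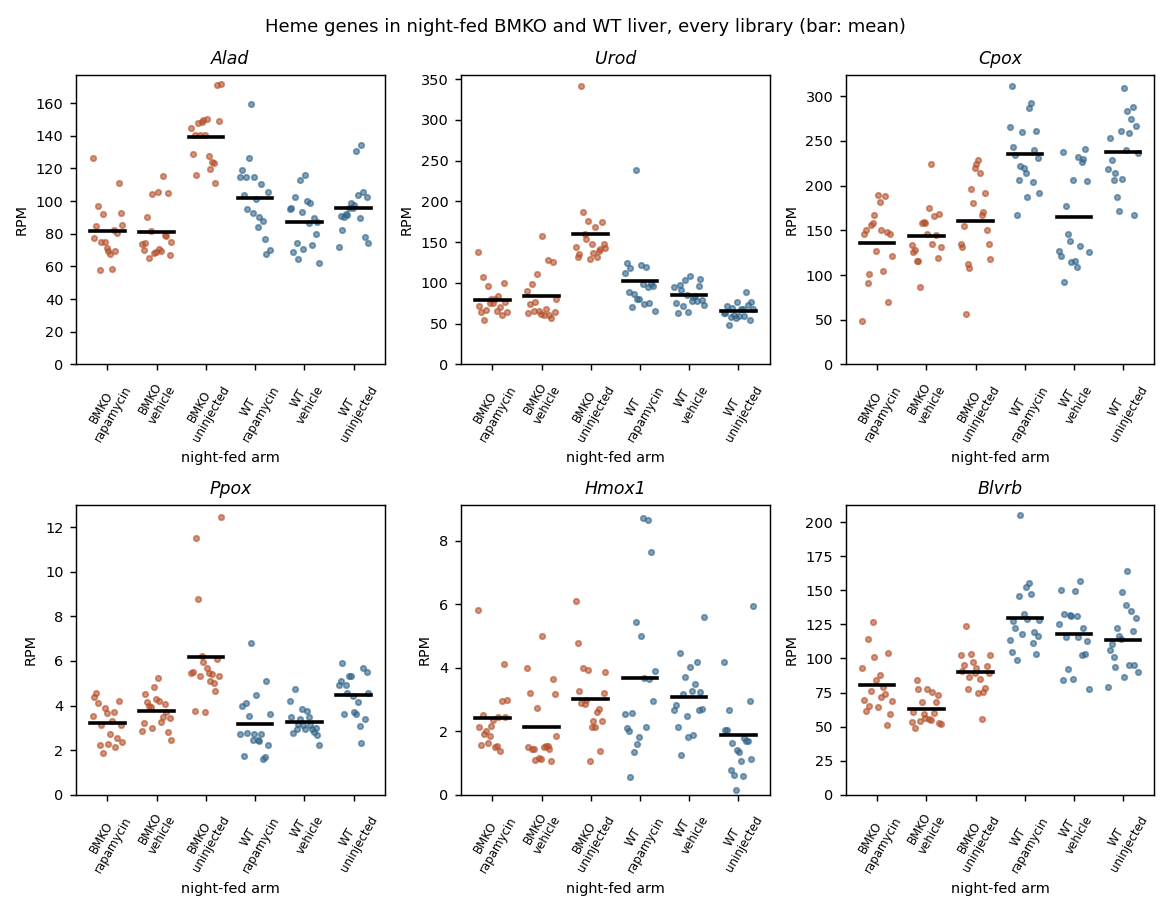
RPM of 6 heme genes in every library of the 6 night-fed BMKO (orange) and WT (blue) arms, 18 libraries an arm, with the arm mean as a black bar. Urod is highest in uninjected BMKO livers, and Blvrb is lowest in vehicle-injected BMKO livers.

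The higher Urod level of BMKO livers was not seen with vehicle. With vehicle, Urod had 56.9, 71.2 and 157 RPM in BMKO livers, against 63.1, 83.6 and 109 RPM in WT livers. The ranges overlapped and the difference of -0.07 ± 0.12 was not called (limma adjusted p = 0.743). The vehicle-injected BMKO libraries were split by replicate number: those numbered 1 had 89.6 to 157 RPM and those numbered 2 and 3 56.9 to 80.2 RPM, without overlap. Without the libraries numbered 1 the difference with vehicle was called lower for Urod (-0.23, limma adjusted p = 0.0267), Alas1 (-0.67, limma adjusted p = 0.0105) and Fech (-0.25, limma adjusted p = 0.0163), and the change of the Urod difference with vehicle kept its call. The BMKO-minus-WT difference with vehicle, minus that without injection, was -1.33 ± 0.17 for Urod (limma adjusted p = 5.02e-10) and -0.64 ± 0.12 for Alad (limma adjusted p = 2.15e-06), a call lost under the deposited scaling (0.0591). For Cpox it was 0.45 ± 0.16 (limma adjusted p = 0.0135), a call lost without the libraries numbered 2 (0.217). In all, 1 higher and 4 lower of 9 genes were called, against 28.7% and 28.4% of all genes. Within BMKO, vehicle against no injection gave -0.96 ± 0.12 for Urod, -0.79 ± 0.08 for Alad and -0.61 ± 0.12 for Ppox as log2 differences (limma adjusted p = 1.47e-10, 2.26e-13 and 6.50e-06). The fits took the libraries of an arm as independent. With the split by replicate number, SEs and p-values that involve the vehicle-injected BMKO arm may be too small. Within WT the same contrast gave 0.37 ± 0.12 for Urod (limma adjusted p = 0.017), a call lost under the deposited scaling (0.126) or without the libraries numbered 1 (0.142) or 2 (0.123).

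The libraries were rescaled here because the deposited factors belong to separate groups of arms. Under the deposited scaling the median of all genes moved by 0.39 in the change with vehicle, 0.32 in vehicle-injected BMKO against WT and 0.27 in vehicle against no injection in BMKO. Under that scaling vehicle-injected BMKO against WT gave 0.27 for Urod and 0.24 for Alad, both called higher and both below the shift of all genes. The call on the change of Urod with vehicle held under it (-0.90).

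Rapamycin changed Cpox in WT liver. Cpox had 168, 233 and 311 RPM with rapamycin, against 92.3, 142 and 241 RPM with vehicle, and rose by 0.56 ± 0.11 (limma adjusted p = 0.000219), with ranges that overlapped. In BMKO liver it had 48.1, 147 and 189.5 RPM with rapamycin, against 86.2, 139 and 224 RPM with vehicle, and the difference of -0.13 ± 0.11 was not called (limma adjusted p = 0.501). The 2 effects differed by -0.69 ± 0.16 (limma adjusted p = 0.00267), the only such call among the 9, with 7.83% and 6.42% of all genes called higher and lower, a call lost without the libraries numbered 1 (0.26). The vehicle arm had itself fallen in WT, by 0.57 on the log2 scale against uninjected mice (limma adjusted p = 8.71e-05). The BMKO calls on Fech (-0.23 ± 0.08, limma adjusted p = 0.0491) and Blvrb (0.33 ± 0.09, limma adjusted p = 0.0105) were lost on leaving out the libraries of any one number.

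Cpox was lower in livers without Tsc1. Cpox had 69.3, 127 and 185 RPM in TSKO livers and 160.4, 196 and 263 RPM in RPKO livers, against 79.8, 209 and 252 RPM in Albumin-Cre livers. TSKO ran low, with overlap, and the difference was -0.66 ± 0.09 (limma adjusted p = 1.47e-07), a call that held in every alternative run, while RPKO differed by 0.09 ± 0.09 and was not called. Directly, TSKO minus RPKO was -0.74 ± 0.09 (limma adjusted p = 2.37e-09), among 3 higher and 3 lower of 9 (3 in all without the libraries numbered 3), against 30.8% and 27.2% of all genes. Urod was -0.27 ± 0.06 in TSKO and -0.29 ± 0.06 in RPKO, both called (limma adjusted p = 0.000732 and 0.00029), with the Albumin-Cre arm shared. Ppox was -0.36 ± 0.10 in TSKO (limma adjusted p = 0.00284), a call lost without the libraries numbered 2 (0.056). Uros was -0.39 ± 0.16 in RPKO (limma adjusted p = 0.0439), a call lost with DESeq2 size factors (0.0522), in edgeR (0.0529), in the joint fit (0.0664) or without the libraries numbered 1 (0.247) or 2 (0.0884). Fech and Alad were called in neither. Alad spread widely in TSKO, with 34.6, 60.8 and 120 RPM, against 66.3, 74 and 112 RPM in Albumin-Cre livers. No TSKO liver lay between 61.6 and 76.7 RPM, and the TSKO median was below every Albumin-Cre liver.

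Ppox was higher after AZD8055 at both hours of injection than in the uninjected arm, which both comparisons share. That arm had the lowest Ppox mean of the 13 arms of the first table (2.50 RPM). No vehicle arm for AZD8055 was present, and the part of the shared arm or of injection alone was not tested. Ppox had 2.07, 3.69 and 6.72 RPM after AZD8055 at dawn and 2.19, 3.78 and 4.91 RPM after AZD8055 at dusk, against 1.23, 2.36 and 4.71 RPM without injection. All 3 ranges overlapped, and the differences were 0.46 ± 0.09 and 0.53 ± 0.09 (limma adjusted p = 0.00013 and 1.12e-05). The called times were ZT 14 with AZD8055 at dawn (0.93 ± 0.23, limma adjusted p = 0.00708, 10.9% of all genes) and ZT 18 with AZD8055 at dusk (0.96 ± 0.23, limma adjusted p = 0.00288, 18.9%). The first was lost without the libraries numbered 2 (0.196) or 3 (0.0909), and the second without the libraries numbered 1 (0.0939) or 2 (0.0527). Cpox rose by 0.28 ± 0.09 with AZD8055 at dawn (limma adjusted p = 0.00772), a call lost without the libraries numbered 2 (0.0591) or 3 (0.0802). With AZD8055 at dusk Alad rose by 0.32 ± 0.07 (limma adjusted p = 0.000325), a call lost without the libraries numbered 1 (0.0823), and Urod by 0.36 ± 0.08 (limma adjusted p = 0.000335), a call lost without the libraries numbered 1 (0.0749).

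The daily course of other heme genes differed between the hours of injection. Between AZD8055 at dawn and at dusk, 6 of 9 genes differed in rhythm, against 41.6% of all genes, and 0 of 9 in daily mean by limma or edgeR (5 at an unadjusted p under 0.05; 4.01% of all genes). The rhythm count was 3 without the libraries numbered 2 and 2 without those numbered 3. At ZT 10 Alad had 47.4, 70.7 and 64.6 RPM after AZD8055 at dawn and 102, 103 and 86.9 RPM after AZD8055 at dusk, against 83.5, 96.2 and 90.7 RPM without injection. The dawn-injected livers were the lowest, and differed by -0.58 ± 0.18 from uninjected livers (limma adjusted p = 0.0136, 23.2% of all genes), a call lost without the libraries numbered 1 (0.163) or 3 (0.0562). Fech at ZT 10 was likewise -0.51 ± 0.17 (limma adjusted p = 0.0229), a call lost under the deposited scaling (0.0572) or without the libraries numbered 1 (0.0654) or 3 (0.239). Against uninjected mice, AZD8055 at dawn changed the rhythm of 2 of 9 genes, Alad and Hmox1, where 14.7% of all genes were called, and AZD8055 at dusk of 0 of 9 by limma and 0 by edgeR (1 at an unadjusted p under 0.05; 5.75%). The Alad call (limma adjusted p = 0.00595) was lost without the libraries numbered 1 (0.105) or 3 (0.12).

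Hmox1, the inducible heme oxygenase, varied with feeding, AZD8055 and Bmal1 loss. Arm means ran from 1.70 to 4.62 RPM in the first table and 12.1 to 14.8 RPM in the second. The tables were normalized separately, and no test was made across them. In WT liver Hmox1 had 0.790, 2.65 and 5.92 RPM with arrhythmic and 1.77, 2.59 and 5.96 RPM with ad libitum feeding, against 0.148, 1.66 and 5.94 RPM with night feeding. The ranges overlapped, and the differences were 0.58 ± 0.14 and 0.72 ± 0.14 (limma adjusted p = 0.000996 and 4.52e-05), the first lost without the libraries numbered 2 (0.14). At ZT 10 Hmox1 had 2.64, 2.46 and 2.13 RPM with arrhythmic feeding, against 0.610, 0.148 and 1.41 RPM with night feeding, without overlap (1.38 ± 0.35, limma adjusted p = 0.00852, 10.2% of all genes), a call lost without the libraries numbered 1 (0.119) or 2 (0.237).

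Hmox1 stood above uninjected livers at ZT 6 after AZD8055 at dawn and at ZT 18 after AZD8055 at dusk. At ZT 6 it had 5.83, 6.00 and 7.28 RPM after AZD8055 at dawn, against 0.790, 1.37 and 1.69 RPM without injection. At ZT 18 it had 8.83, 8.73 and 14 RPM after AZD8055 at dusk, against 2.32, 3.07 and 4.26 RPM without injection. Injected livers were above all uninjected ones at both times, by 1.97 ± 0.39 and 1.57 ± 0.39 (limma adjusted p = 0.000365 and 0.00427; 16.2% and 18.9% of all genes), and both calls held in every alternative run. The rhythm peaked at ZT 9.80 after AZD8055 at dawn and ZT 19.3 after AZD8055 at dusk, against ZT 19 without injection, and differed between the injected arms (limma adjusted p = 4.69e-05), a call that held in every alternative run. Against uninjected mice the rhythm difference was called after AZD8055 at dawn (limma adjusted p = 0.0015), a call lost without the libraries numbered 1 (0.0622), and not after AZD8055 at dusk (limma adjusted p = 0.879). The daily mean rose by 0.59 ± 0.16 after AZD8055 at dawn (limma adjusted p = 0.00334), a call lost without the libraries numbered 3 (0.103), and differed by 0.30 ± 0.16 after AZD8055 at dusk (limma adjusted p = 0.122).

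**Figure D5:**
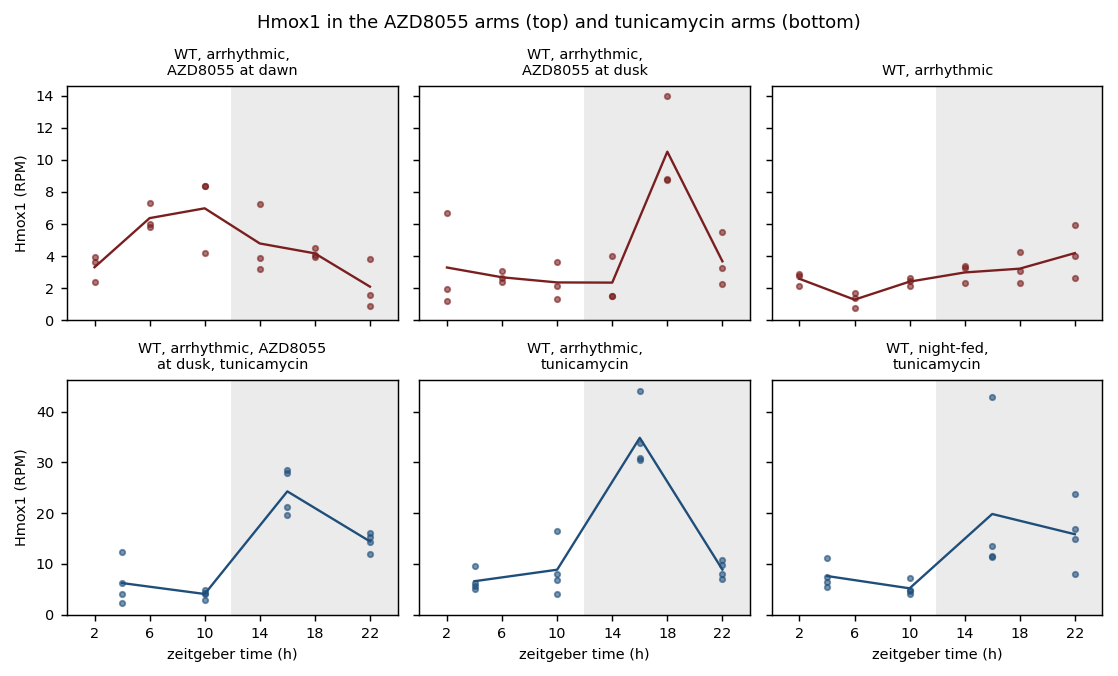
Hmox1 in every library (points, RPM on a linear axis from 0) with the mean at each time (lines) against zeitgeber time in hours, dark hours shaded; the top row is from the first table and the bottom row, all with tunicamycin, from the second, on separate scales. The mean is highest at ZT 10 after AZD8055 at dawn, at ZT 18 after AZD8055 at dusk, and at ZT 16 in the tunicamycin arms, in the night-fed one through the single library at 42.9 RPM.

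With tunicamycin the mean of Hmox1 was highest at ZT 16 in both arrhythmically fed arms. There it had 21.2, 28.4, 27.9 and 19.6 RPM with AZD8055 at dusk and arrhythmic feeding, 30.6, 33.8, 30.9 and 44.2 RPM with arrhythmic feeding alone and 11.6, 42.9, 11.3 and 13.6 RPM with night feeding. All but 1 of the night-fed livers were below the others. At ZT 22 the night-fed livers had 14.8, 7.90, 16.8 and 23.9 RPM, and 3 of these 4 were above the other 3 night-fed livers at ZT 16. The fitted peak with night feeding was at ZT 19.5. The amplitudes were 1.36 ± 0.15, 1.18 ± 0.14 and 0.92 ± 0.18 in the same 3 arms, each rhythm called (limma adjusted p = 1.58e-05, 0.000108 and 0.00533), the last lost without the libraries numbered 1 (0.0558). The daily mean did not give a called difference between arrhythmic and night feeding (0.18 ± 0.18, limma adjusted p = 0.727) or with AZD8055 (-0.25 ± 0.18, limma adjusted p = 0.439).

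By genotype, Hmox1 had 1.06, 2.87 and 6.10 RPM in uninjected BMKO livers, against 0.148, 1.66 and 5.94 RPM in WT livers, and was higher by 0.70 ± 0.18 (limma adjusted p = 0.000412), a call lost without the libraries numbered 2 (0.139). With vehicle it had 1.08, 1.52 and 5.01 RPM in BMKO livers, against 1.26, 3.01 and 5.59 RPM in WT livers, and was -0.50 ± 0.18 (limma adjusted p = 0.034), a call lost under the deposited scaling (0.279) or without the libraries numbered 2 (0.152) or 3 (0.239). The ranges overlapped in both cases and the sign turned. The change of the genotype difference with vehicle was -1.20 ± 0.25 (limma adjusted p = 4.34e-05). RPKO had 0.190, 1.45 and 3.48 RPM, TSKO 0.796, 2.40 and 5.17 RPM and Albumin-Cre 1.56, 2.34 and 4.39 RPM of Hmox1. RPKO fell by 0.56 on the log2 scale (limma adjusted p = 0.00703), a call lost without the libraries numbered 3 (0.228), and TSKO differed by 0.02 ± 0.17.

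Blvrb fell with Bmal1 loss, most plainly after vehicle. It had 49.1, 59.6 and 84.2 RPM in vehicle-injected BMKO livers, against 77.3, 119 and 157 RPM in vehicle-injected WT livers. Most BMKO libraries were below all WT libraries, the ranges touched, and the log2 difference was -0.89 ± 0.09 (limma adjusted p = 5.64e-13), called in every alternative run and at 4 of the 6 times. Uninjected, it had 55.9, 90.2 and 124 RPM in BMKO, against 78.9, 112 and 164 RPM in WT, a difference of -0.33 ± 0.09 (limma adjusted p = 0.00109), a call lost without the libraries numbered 2 (0.0839). The 10 hepatocyte markers summed to 28856 to 61594 RPM in vehicle-injected BMKO livers and 63283 to 105069 RPM in vehicle-injected WT livers, and their part in the Blvrb difference was not tested.

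Over the 20 comparisons, several of which share an arm, the daily mean of Blvrb was called higher in 2 and lower in 8. It was -0.22 ± 0.07 in TSKO (limma adjusted p = 0.00808), a call lost without the libraries numbered 2 (0.141), and 0.26 ± 0.07 in RPKO (limma adjusted p = 0.00145), a call lost under the deposited scaling (0.818). TSKO and RPKO differed directly by -0.49 ± 0.07 (limma adjusted p = 5.08e-08). After AZD8055 at dawn Blvrb had 84.2, 73.8 and 84.5 RPM at ZT 10, against 148, 114 and 131 RPM without injection, without overlap (-0.69 ± 0.15, limma adjusted p = 0.000667, 23.2% of all genes). Its daily mean was -0.28 ± 0.06 after AZD8055 at dawn and -0.14 ± 0.06 after AZD8055 at dusk, both called (limma adjusted p = 0.000281 and 0.0483), the second lost under the deposited scaling (0.29), without the filter (0.0548), in the joint fit (0.125) or without the libraries numbered 2 (0.474) or 3 (0.251). Feeding gave no called difference (0.05 ± 0.07 for arrhythmic against night feeding).

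The other genes of heme synthesis and of its transport into mitochondria moved in both directions. In arrhythmic against night feeding 3 higher and 2 lower of 11 were called (23.9% and 20.1% of all genes), with a median log2 difference of 0.09 beside 0.02 for all genes and -0.08 for the 9 heme genes. Tmem14c, a mitochondrial porphyrin carrier, was -0.22 ± 0.05 (limma adjusted p = 0.000248), a call lost without the libraries numbered 2 (0.0898). The rhythm of Abcb10, a mitochondrial transporter needed for heme synthesis in red cell precursors, had an amplitude of 0.06 with arrhythmic and 0.37 with night feeding (limma adjusted p = 0.00156), a call lost in the joint fit (0.29) or without the libraries numbered 2 (0.259). In uninjected BMKO against WT 5 higher and 4 lower of 11 were called (34.3% and 37.4% of all genes), with a median of 0.21 beside -0.06 for all genes and 0.12 for the 9. Pgrmc1, a heme-binding membrane protein, was -1.16 ± 0.13 (limma adjusted p = 3.24e-12). Clpx, part of the mitochondrial protease that acts on ALAS, had an amplitude of 0.37 in vehicle-injected BMKO and 1.25 in vehicle-injected WT livers (limma adjusted p = 1.93e-06), and a daily mean difference of 1.5 ± 0.15 (limma adjusted p = 5.80e-14).

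For bilirubin handling, 2 higher and 2 lower of 6 genes were called in arrhythmic against night feeding (23.9% and 20.1% of all genes) and 1 higher and 3 lower of 6 in uninjected BMKO against WT (34.3% and 37.4%), with medians of 0.12 and -0.24. Hmox2, the constitutive heme oxygenase, was 0.39 ± 0.07 with arrhythmic feeding and 1.14 ± 0.09 in BMKO (limma adjusted p = 6.60e-06 and 1.09e-18). Ugt1a1, which conjugates bilirubin, was -0.28 ± 0.06 and -0.91 ± 0.14 in the same comparisons (limma adjusted p = 0.000466 and 4.39e-08), the first lost without the libraries numbered 2 (0.0678). Of the genes of heme export, import and scavenging, 3 higher and 4 lower of 9 were called in arrhythmic against night feeding, where the same shares of all genes apply. Among plasma scavengers, Hp (haptoglobin, which binds hemoglobin) rose by 2.20 ± 0.14 and Hpx (hemopexin, which binds heme) by 2.04 ± 0.17 after AZD8055 at dawn, and by 2.04 ± 0.14 and 1.90 ± 0.17 after AZD8055 at dusk, with limma adjusted p of at most 8.78e-12. Under tunicamycin both were again higher with AZD8055 at dusk than without it (1.35 ± 0.17 and 1.02 ± 0.16, limma adjusted p = 2.25e-07 and 3.39e-05). With no vehicle arm for AZD8055, the part of injection alone was not tested. Hp was -2.31 ± 0.13 in TSKO (limma adjusted p = 2.52e-18).

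Factors known to act on Alas1 include clock genes, coactivators and nuclear receptors. In uninjected BMKO against WT 5 of 12 differed in rhythm, against 3.09% of all genes, and 3 higher and 5 lower of 12 in daily mean, against 34.3% and 37.4% of all genes. Dbp, a D-box activator, had an amplitude of 0.25 in BMKO and 3.15 in WT, and Nr1d1, the heme-binding repressor REV-ERB alpha, 0.34 in BMKO and 2.76 in WT (limma adjusted p = 3.56e-20 and 1.14e-10). In arrhythmic against night feeding 3 of the 12 differed in rhythm (4.62% of all genes), and under tunicamycin Tef and Dbp led (limma adjusted p = 1.14e-09 and 7.93e-09). After AZD8055 at dawn the amplitude of Ppargc1a, a coactivator that induces Alas1 in fasting, was 0.89, against 0.27 without injection (limma adjusted p = 1.01e-05).

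Of the factors known to act on Hmox1, 5 higher and 0 lower of 8 were called in arrhythmic against night feeding (23.9% and 20.1% of all genes), among them Nfe2l2, the gene of the activator NRF2 (0.43 ± 0.07), and Bach1, the heme-sensing repressor (0.39 ± 0.08; limma adjusted p = 9.61e-07 and 0.0002), the second lost without the libraries numbered 3 (0.0539). After AZD8055 at dawn Nfe2l2 was -0.54 ± 0.06 (limma adjusted p = 6.19e-09), and of the other NRF2 targets 1 higher and 5 lower of 9 were called (21% and 20% of all genes), with a median of -0.19 beside 0.02 for all genes. Gclc, the catalytic subunit of glutathione synthesis, was -0.72 ± 0.10 (limma adjusted p = 3.05e-07), while Hmox1 was higher over the same day. In vehicle-injected BMKO against WT 0 higher and 6 lower of 8 factors and 0 higher and 4 lower of 9 targets were called, against 9.95% and 11.8% of all genes. The hepatocyte marker sums of these arms (28856 to 61594 RPM in BMKO and 63283 to 105069 RPM in WT) did not overlap, and their part in these counts was not tested.

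With rapamycin the called hemoprotein genes, the users of heme, were all lower: 0 higher and 6 lower of 17 in WT and 0 higher and 9 lower of 17 in BMKO, with medians of -0.15 and -0.47 beside -0.0009 and -0.0066 for all genes, of which 8.72% and 5.57% were called lower. The 10 hepatocyte markers summed to 37325 to 75005 RPM with rapamycin and 63283 to 105069 RPM with vehicle in WT, and to 24392 to 48243 RPM with rapamycin and 28856 to 61594 RPM with vehicle in BMKO. The sums ran lower with rapamycin, with overlap, and their part in the hemoprotein genes was not tested. Cyp2b10, an inducible P450, was -2.14 ± 0.26 in WT and -2.49 ± 0.26 in BMKO, and Cyp2a5, a P450 that hydroxylates coumarin, -1.30 ± 0.26 and -1.71 ± 0.26 (limma adjusted p of at most 0.000168). In the same 2 comparisons Alas1 was -0.05 ± 0.21 and 0.26 ± 0.21 and not called. In uninjected BMKO against WT 9 higher and 6 lower of 17 hemoprotein genes were called (34.3% and 37.4% of all genes), led by Tdo2, the heme-dependent tryptophan dioxygenase (-1.84 ± 0.12), and Cyp2a5 (-3.19 ± 0.26; limma adjusted p = 1.59e-24 and 1.35e-18).

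Across the 78 arm-by-time means of the first table, the genes most like Alas1 by Pearson correlation of log2 levels were Usp2 (0.85), Pfkfb3 (0.81), Mtss1 (0.79), Coq10b (0.79) and Fam102a (0.78), among the 8126 named genes averaging 5 RPM or more. Those most like Alad were Mrpl12 (0.89), Mrps34 (0.89), Rhot2 (0.87), Rnf187 (0.87) and Mrpl14 (0.86), and like Urod Jmjd8 (0.92), Etfb (0.91), Stub1 (0.91), Wdr89 (0.91) and Rps20 (0.91). For Uros they were Sipa1l1 (0.64), Gpkow (0.63), Numb (0.61), Eif4g3 (0.60) and Rnft1 (0.59), and for Cpox Slc25a20 (0.79), Gid8 (0.75), Adam1a (0.72), Prdx3 (0.72) and Mapkapk5 (0.71). For Ppox they were Fau (0.71), Galt (0.71), Med16 (0.71), Gcat (0.70) and Lsm2 (0.70), and for Fech Selenoo (0.68), Atp5j2 (0.68), Bdh2 (0.67) and Cat (0.65). Hmox1 was most like Grn (0.65), Il6st (0.60), Tagln2 (0.60), Ywhah (0.60) and H1f2 (0.60), and Blvrb most like Dhrs7 (0.80), Pltp (0.80), Ces1e (0.80), Nat8 (0.79) and Ces1g (0.77). Among the 9 themselves Alad and Urod were most alike (0.77), then Alad and Ppox (0.59), and Uros and Fech least (-0.59). The 78 means share libraries and arm-wide shifts in level, so these values describe likeness over this design.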

How the data were processed

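QuantSeq 3′ end RNA-seq profiled 282 liver libraries in 16 arms. Per the submitters' processing notes, the build was mm10 (GRCm38.p6) and the tools included STAR 2.7.3a and SAMtools. The sources used here name no counting program or strand setting. The authors' values are a normalised signal: whole reads divided by a factor per library, set in separate groups of arms. Whole reads were recovered within a tolerance of 0.01 for 100% of values outside RPKO. In RPKO, 197 genes left that step in some library and were left out of fits with RPKO, none of them a heme gene.

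Reads were converted to RPM after TMM scaling (edgeR 4.0.16), genes averaging 1 RPM or more were kept, and log2(RPM + 0.5) was fitted with limma 3.58.1 in R 4.3.3, so differences of low genes are understated. Each fit held only the arms compared, with a mean per arm and time. Contrasts gave the difference in daily mean, the joint difference of 24 h cosine and sine, and the difference at each time, with Benjamini-Hochberg adjustment over all genes and a threshold of 0.05. Whether values hold under DESeq2 1.42.0 size factors, edgeR's quasi-likelihood test, other scalings and left-out libraries is given in the closing section, and the scripts were tested on simulated data. "Without the libraries numbered 2" leaves out that replicate number in every group of the fit.

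The 9 genes and the lists of related genes were chosen with earlier results of these data known, and the direct comparisons of AZD8055 at dawn with dusk, TSKO with RPKO, arrhythmic with ad libitum feeding, and of the genotype difference between vehicle and no injection were added after the daily means and time courses were seen. Named list genes are, per comparison, the 4 or fewer of each list lowest in adjusted p, and for each heme gene the 5 genes with the highest correlation over the 78 arm-by-time means. A few genes that these rules name are not reported here. The replicate numbers were not treated as pairs across arms, as no comparison had every same-number correlation over 0.1. That rule is strict and cannot exclude some pairing. Median correlations ran from -0.0352 for RPKO against Albumin-Cre to 0.164 for rapamycin against vehicle in BMKO.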

Additional observations from a re-analysis of the deposited data

Results flagged for a closer look

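Among 108 groups of 4 tunicamycin-treated livers, 8 held 1 library far from the other 3, where chance gives about 1 in 20. Alas1 with AZD8055 at ZT 10 had 272 RPM, against 555 to 613 RPM in the other 3. Blvrb with AZD8055 at ZT 16 had 106 RPM, against 82.9 to 86.5 RPM in the other 3, and with arrhythmic feeding alone at ZT 4 121 RPM, against 95.4 to 96.8 RPM in the other 3. Fech with arrhythmic feeding at ZT 22 had 49.2 RPM, against 61.1 to 61.6 RPM in the other 3. Hmox1 with night feeding at ZT 16 had 42.9 RPM, against 11.3 to 13.6 RPM in the other 3. Ppox with arrhythmic feeding at ZT 10 had 2.97 RPM, against 4.66 to 4.96 RPM in the other 3. Urod with AZD8055 at ZT 4 had 135 RPM, against 67.9 to 78.7 RPM in the other 3, and with arrhythmic feeding at ZT 16 101 RPM, against 56.4 to 60.04 RPM in the other 3.

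The effect of 1 treatment differed between groups for several genes. The rapamycin effect on Cpox in BMKO minus that in WT was -0.69 (limma adjusted p = 0.00267). The BMKO-minus-WT difference with vehicle, minus the same without injection, was -0.64 (limma adjusted p = 2.15e-06) for Alad and -1.33 (limma adjusted p = 5.02e-10) for Urod. The same contrast gave 0.45 (limma adjusted p = 0.0135) for Cpox, -1.20 (limma adjusted p = 4.34e-05) for Hmox1 and -0.56 (limma adjusted p = 0.000202) for Blvrb. Between AZD8055 at dawn and at dusk, the rhythm difference had an amplitude of 1.06 (limma adjusted p = 0.00277) for Alas1, 0.46 (limma adjusted p = 0.00108) for Alad and 0.36 (limma adjusted p = 0.0493) for Cpox. It was 0.35 (limma adjusted p = 0.0104) for Fech, 1.31 (limma adjusted p = 4.69e-05) for Hmox1 and 0.34 (limma adjusted p = 0.00481) for Blvrb. The Cpox call between the hours of injection was lost with DESeq2 size factors (0.0615), under the deposited scaling (0.0662), without the filter (0.0564), in edgeR (0.0502), in the joint fit (0.119) or without the libraries numbered 1 (0.215), 2 (0.0541) or 3 (0.18).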

How the results depend on the processing

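Over all alternatives, 9074 values kept their direction and side of the threshold, 388 lost a call, 75 gained one and 5 turned round with a call. Counts of called genes stayed within 1.5 times in 579 cases and moved in 69. Of 100 differences called at single times, 15 kept the call whichever replicate number was left out, so single times rest on few libraries. Hmox1, Uros and Ppox are limited by depth. The doses, the missing vehicle arm for AZD8055 and the arms of the second table, all with tunicamycin, limit what the contrasts cover.

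All 5 reversals came with the deposited scaling, which shifts the median of all genes. In vehicle-injected BMKO against WT, Alad was 0.24 and Urod 0.27, and Fech was 0.25 for vehicle against no injection in BMKO, -0.20 in RPKO against Albumin-Cre and 0.23 in TSKO against RPKO. With that scaling, vehicle-injected BMKO against WT had 5 called genes of 9 in place of 2, and the change of that difference with vehicle 3 in place of 5. With edgeR on the recovered reads, 2 rhythms in place of 1 differed in arrhythmic against night feeding, and 1 gene in place of 2 was rhythmic in RPKO. With a joint fit of all arms, vehicle-injected BMKO against WT had 4 calls in place of 2, and rhythmic genes numbered 1 in place of 2 with ad libitum feeding, 0 in place of 2 with arrhythmic feeding, 2 in place of 1 in WT with vehicle, 2 in place of 1 in WT with rapamycin and 1 in place of 2 in RPKO. Without the filter, and with a pseudocount of 0.1, rapamycin in BMKO had 1 call in place of 2. Without libraries under 3 M reads, rapamycin in WT had 2 in place of 1.

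The main fits did not treat replicate numbers as pairs across arms. With the number as a block, the counts moved to 2 from a main count of 1 for rapamycin in WT, to 1 from 0 for the daily mean of AZD8055 at dawn against dusk and of AZD8055 under tunicamycin, and, for rhythmic genes, to 5 from 2 in uninjected WT and to 2 from 1 in vehicle-injected BMKO. The blocked fit moved no other count by over 1.5 times. Within each of the 16 arms, libraries of one number deviated together more than those of different numbers, most in vehicle-injected BMKO (median correlation 0.477 against -0.358). The main fits took the libraries of an arm as independent, and the block gave a number the same effect in every arm. Neither covers such deviations within an arm, so SEs and p-values of daily means may be too small.

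Leaving out each replicate number gave ranges of called daily means of 3 to 6 for arrhythmic against night feeding, 4 to 6 for uninjected BMKO against WT, 1 to 5 for the same with vehicle, 1 to 2 and 0 to 0 for rapamycin in WT and BMKO and 0 to 1 for their difference. They were 1 to 4 for vehicle in WT, 2 to 4 for TSKO, 3 to 4 for RPKO, 3 to 6 for TSKO against RPKO and 2 to 3 for Albumin-Cre against WT. For AZD8055 they were 2 to 4 at dawn, 0 to 1 for dawn against dusk and 0 to 1 under tunicamycin. Ranges of called rhythm differences were 0 to 1 for uninjected BMKO, 0 to 2 for AZD8055 at dawn, 2 to 4 for dawn against dusk and 1 to 2 for feeding under tunicamycin. Rhythmic genes numbered 1 to 2 with night feeding, 0 to 2 with ad libitum feeding, 0 to 0 with arrhythmic feeding, 0 to 2 in WT with rapamycin, 1 to 2 in uninjected BMKO and 0 to 2 in BMKO with vehicle. They numbered 1 to 1 in Albumin-Cre, 1 to 2 in TSKO, 1 to 2 in RPKO, 0 to 3 and 1 to 2 with AZD8055 at dawn and dusk and 1 to 3 with night feeding under tunicamycin.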
